A study of Gossypium hirsutum with 30 samples.

Results

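A group of 28 transcripts, each measured by its own probe set on the cotton array, was lower in the fuzzless-lintless (fl) mutant than in wild-type (WT) ovules at 10 days post anthesis (dpa) and higher in it at 15 dpa. The members were chosen from the measured values themselves, as the probe sets with a mutant minus WT difference of at most −1.585 on the log2 scale (3-fold lower) at 10 dpa, of at least 1.585 (3-fold higher) at 15 dpa and above −1.585 at 0 dpa. Probe sets that the study listed among its transcription factors, phytohormone transcripts or metabolic and cell wall transcripts were left out. The rule took 28 of 24029 probe sets. A further 25 had the same differences but stood in those lists, and 88, listed or not, met the conditions at 10 and 15 dpa but were also lower at 0 dpa, so that 141 probe sets in all were lower at 10 dpa and higher at 15 dpa.

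The ovules came from field-grown Gossypium hirsutum cv. MCU5, with fibres attached where the genotype makes them, and from its near-isogenic fl mutant, a spontaneous mutant that carries neither lint nor fuzz and is a single line. Total RNA of each genotype was hybridised at 5 stages, on the day of anthesis (0 dpa) and at 5, 10, 15 and 20 dpa, with 3 biological replicates, which gave 30 arrays in 10 groups. Fibres initiate at the first of these and deposit their secondary wall at the last, and the 3 stages between fall into elongation. Every value is a log2 expression value that was shifted, probe set by probe set, so that its median over the 6 arrays of a stage is 0. A value of 1 on a WT array therefore means 2-fold above the middle of that stage, and neither a level nor a change from stage to stage can be read from it. At 5 and 20 dpa the sign that the sample labels give is opposite to the sign in the fold tables of the study, and the labels were followed, so higher and lower at these stages refer to the groups as labelled. Fibre genes bear on this direction at 20 dpa: of 27 of their probe sets, 4 were called higher and 13 lower in the mutant at 15 dpa. At 20 dpa 8 were called higher and 3 lower in the arrays labelled mutant, although mutant ovules carry no fibres. Of the same 27, 1 was called higher and 1 lower at 5 dpa, so their counts give no direction at that stage. At 5 dpa, 441 of all probe sets were called higher and 43 lower by the labels. The paper instead describes mostly lower transcripts in the mutant at early elongation. It also reports that real-time PCR of selected transcripts gave a pattern similar to its arrays. Both statements are on the side of its fold tables and opposite to the labels. The labels themselves were not tested. Where a statement turns on the direction, the outcome with the WT and mutant labels exchanged at 5 and 20 dpa is given too. Since WT ovules carry fibres and mutant ovules do not, fewer fibre cells and less RNA per cell cannot be told apart in these whole-ovule samples.

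Cotton fibres are single epidermal cells of the ovule that grow outwards without dividing, loosen and extend a primary wall, and later lay down a cellulose-rich secondary wall. Calcium signals, jasmonates and reversible protein phosphorylation are general means by which plant cells pass on developmental cues, wounding and touch, and many of their response genes switch on and off within minutes. No gene name could be given to any of the 28 members, since 0 of them stood among the 1443 probe sets of the study's annotation table, as far as that table is held here, and 0 among the 743 with a gene in the annotation of the array. The members are therefore identified by probe set, and what is known of the sequence clusters they belong to is given after their values.

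At 10 dpa all 28 members were lower in the mutant, and at 15 dpa all 28 were higher. These differences are what the rule asked for and carry no test. The arrays of the 2 genotypes did not overlap for any member at either stage. Over all probe sets they did not overlap for 64.3% at 10 dpa and 54.8% at 15 dpa. Past an adjusted p of 0.01 and 3-fold, limma called 6.55% of all probe sets lower at 10 dpa and 1.52% higher at 15 dpa. All 28 members were among these, but they were chosen on the same arrays, so their calls are no support. What the rule did not set is how far past it they lay. The median difference was −2.42 at 10 dpa, with a range from −6.85 to −1.62, and 2.21 at 15 dpa, with a range from 1.60 to 4.45. Between the stages the difference moved up by 3.80 to 9.34, with a median of 4.82. In 19 members the size of the difference was larger at 10 dpa, and in 9 it was larger at 15 dpa. Replicates lay close together, with SDs of 0.108 at the median and 0.421 at the most at 10 dpa, and of 0.105 and 0.310 at 15 dpa.

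**Figure D1:**
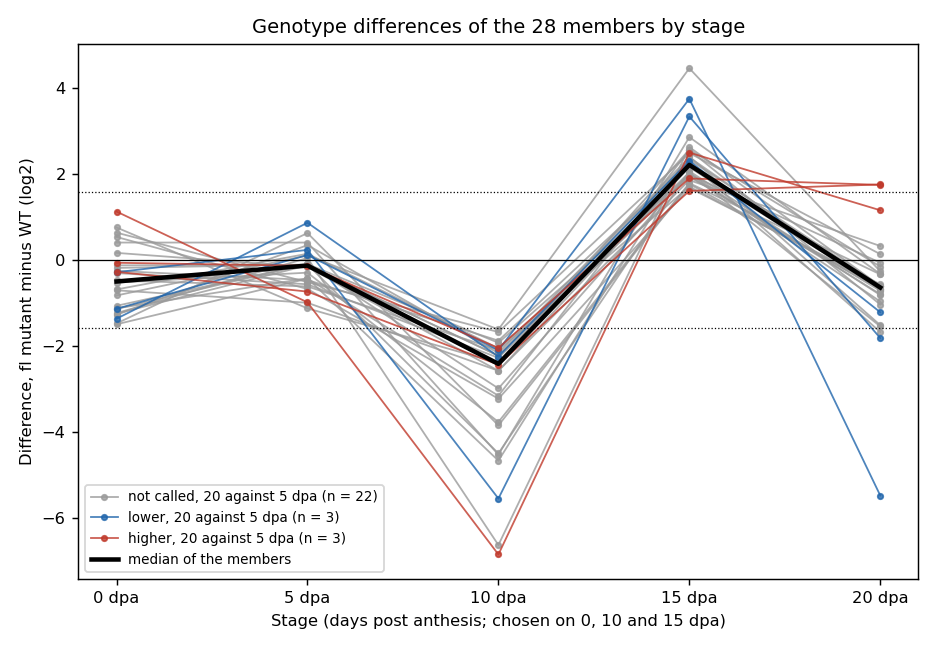
Mutant minus WT difference (y axis, log2) of each of the 28 members at the 5 stages (x axis). Each line is a member, the black line is their median, dotted lines mark 3-fold, and colours give the result of the test of 20 against 5 dpa. The median goes from −2.42 at 10 dpa to 2.21 at 15 dpa by the choice of members, and at 20 dpa the lines fan out from −5.48 to 1.75.

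The largest move was that of GhiAffx.4130.1.S1_at. At 10 dpa its WT arrays gave 3.47, 3.36 and 3.31 and its mutant arrays −3.71, −3.31 and −3.39. At 15 dpa the WT arrays gave −1.27, −1.21 and −1.24 and the mutant arrays 1.26, 1.28 and 1.21. The mutant thus stood 115-fold below WT at the earlier stage and 5.61-fold above it at the later, with a gap between the genotypes on all of these arrays. At 0 dpa the values were −0.40, −0.55 and −0.74 in WT and 0.63, 0.40 and 0.63 in the mutant, the only difference past 2-fold in favour of the mutant among the members at that stage.

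Ghi.6875.1.S1_at had the next largest move. Its WT arrays read 3.26, 3.19 and 3.39 and its mutant arrays −3.19, −3.67 and −3.20 at 10 dpa, a 99.3-fold difference. At 15 dpa they read −1.02, −1.65 and −1.53 in WT against 1.39, 1.02 and 1.26 in the mutant, a 6.17-fold difference the other way. Of these gaps the one at 10 dpa was the wider. At 0 dpa its WT values of 0.66, 0.45 and 0.37 lay above the mutant values of −0.92, −0.95 and −0.37, and at 5 dpa WT at −0.15, 0.07 and −0.07 and mutant at −0.28, 0.08 and 0.18 overlapped.

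For Ghi.6732.1.A1_at the WT arrays at 10 dpa held 2.80, 2.68 and 2.82, and the mutant arrays −2.77, −2.68 and −2.91, a 46.9-fold difference. At 15 dpa they held −1.80, −1.32 and −1.90 in WT and 1.32, 1.81 and 1.84 in the mutant, a 10.0-fold difference in the mutant's favour. Here the later stage was also large, and only 2 other members exceeded it at 15 dpa. The genotypes overlapped at 0 dpa, with −0.02, 0.19 and 0.05 in WT and −0.45, 0.02 and −0.21 in the mutant, and again at 5 dpa, with 0.01, −0.09 and −0.11 in WT and −0.01, 0.20 and 0.30 in the mutant.

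Ghi.8943.2.A1_s_at gave 2.25, 2.26 and 2.17 in WT and −2.41, −2.17 and −2.33 in the mutant at 10 dpa, 23.1-fold apart. At 15 dpa it gave −1.35, −1.77 and −1.32 in WT and 1.32, 1.35 and 1.47 in the mutant, 7.23-fold apart. The genotypes were clear of each other at all 5 stages. At 0 dpa the mutant values of 0.17, 0.20 and 0.23 all lay above the WT values of −0.23, −0.19 and −0.17, and at 5 dpa the mutant at 0.29, 0.13 and 0.10 again lay above WT at −0.28, −0.10 and −0.30. At 20 dpa the order was by the labels the reverse, with 0.13, 0.17 and 0.19 in WT and −0.22, −0.17 and −0.13 in the mutant.

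Ghi.45.1.S1_at stood at 2.22, 2.31 and 2.28 in WT and at −2.22, −2.62 and −2.35 in the mutant at 10 dpa, a 25.5-fold difference, and at −1.12, −1.20 and −1.29 in WT and 1.12, 1.22 and 1.25 in the mutant at 15 dpa, a 5.29-fold difference. Apart from 15 dpa, its WT arrays as labelled were above its mutant arrays at every stage: at 0 dpa they read 0.59, 0.61 and 0.50 against −0.53, −0.50 and −0.67, at 5 dpa 0.41, 0.12 and 0.15 against −0.33, −0.12 and −0.16, and at 20 dpa 0.66, 0.74 and 0.67 against −0.66, −1.09 and −0.74. With the labels exchanged its differences were 0.43 at 5 dpa and 1.52 at 20 dpa, so that WT was then above the mutant at 0 and 10 dpa and below it at the other 3 stages. GhiAffx.6049.1.A1_at stood at 2.59, 1.92 and 2.29 in WT and at −1.92, −2.50 and −2.27 in the mutant at 10 dpa, a 22.6-fold difference, and at −0.76, −1.61 and −1.29 in WT and 0.92, 0.84 and 0.76 in the mutant at 15 dpa, a 4.17-fold difference. Its spread in WT at 15 dpa was wide, from −1.61 to −0.76, but still clear of the mutant. Its genotypes overlapped at 0 dpa (0.09, 0.15 and −0.09 in WT, −0.19, −0.31 and 0.10 in the mutant) and at 5 dpa (−0.10, 0.19 and 0.16 in WT and 0.01, −0.01 and −0.09 in the mutant).

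**Figure D2:**
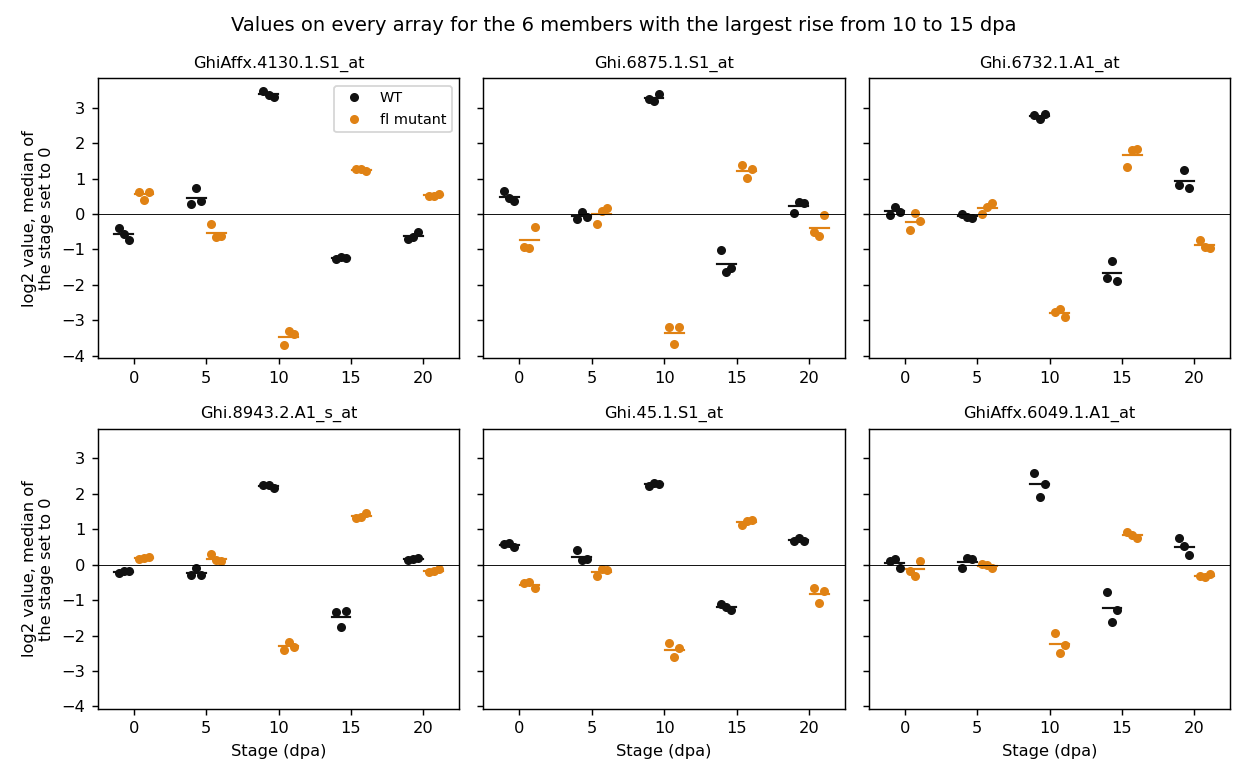
Values of the 6 members with the largest move, on all arrays (y axis, log2 value with the median of its stage set to 0; x axis, stage in dpa). Points are single arrays and bars are means of 3. WT is above the mutant at 10 dpa and below it at 15 dpa in all 6 panels, as the choice of members requires, while at 0, 5 and 20 dpa the differences are smaller and of either sign, the largest being −1.82 for Ghi.6732.1.A1_at at 20 dpa.

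Apart from these 6 members, which were all past 16-fold at 10 dpa, the others formed a graded series at that stage. GraAffx.2384.1.S1_x_at (14.4-fold), Ghi.8763.2.S1_at (13.7-fold), GhiAffx.15626.1.S1_at (9.35-fold) and Ghi.1471.1.S1_s_at (8.96-fold) were past 8-fold lower. Then came Ghi.3763.1.S1_s_at at 7.96-fold, Ghi.9662.1.S1_s_at at 5.96-fold with Ghi.4567.1.A1_s_at beside it (both −2.58 on the log2 scale), Ghi.4436.1.A1_at at 5.42-fold and Gra.1273.1.A1_at at 5.27-fold. A further 9 members lay between 4.13-fold and 4.85-fold, namely GraAffx.9209.1.A1_s_at, Ghi.9405.1.A1_at, GraAffx.7979.1.S1_s_at, GhiAffx.41420.1.S1_at, Ghi.8858.2.A1_s_at, Ghi.10414.1.S1_s_at, Ghi.3125.1.S1_x_at, GhiAffx.33946.1.S1_at and GhiAffx.18050.1.S1_s_at. GhiAffx.39948.1.S1_at (3.80-fold), GhiAffx.25235.1.A1_at (3.68-fold), GhiAffx.49735.1.S1_s_at (3.21-fold) and Ghi.10406.1.S1_s_at (3.08-fold) were the smallest.

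At 15 dpa the order was another. Ghi.10406.1.S1_s_at, the smallest at 10 dpa, was the largest at 15 dpa: its WT arrays gave −2.16, −2.30 and −2.30 and its mutant arrays 2.16, 2.17 and 2.26, 21.9-fold apart. Ghi.10414.1.S1_s_at followed at 13.4-fold, with −1.92, −1.83 and −1.89 in WT and 1.86, 1.83 and 1.90 in the mutant, and Ghi.6732.1.A1_at at 10.0-fold. The other members lay between 3.04-fold and 7.23-fold, 18 of the 28 being past 4-fold. Past 16-fold there were 6 members at 10 dpa and 1 at 15 dpa, and the latter was not among the 6.

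The thresholds cut through a continuous range of values. At 10 dpa Ghi.10406.1.S1_s_at was just inside, with WT arrays at 0.81, 0.73 and 0.77 and mutant arrays at −1.00, −0.83 and −0.73, and Ghi.9120.2.A1_s_at just outside at −1.50, with 0.61, 0.78 and 0.89 in WT and −0.72, −0.88 and −0.61 in the mutant. At 15 dpa Ghi.4436.1.A1_at was just inside at 1.60, with −0.89, −0.74 and −0.79 in WT and 0.81, 0.85 and 0.74 in the mutant. Ghi.4631.1.A1_at missed it in the next decimal at 1.58, with −0.87, −0.81 and −0.72 in WT and 0.72, 0.85 and 0.78 in the mutant. At 0 dpa Ghi.1471.1.S1_s_at stayed inside at −1.50, with 0.83, 0.80 and 0.70 in WT and −0.73, −0.70 and −0.73 in the mutant, and GhiAffx.4043.9.S1_at, matched to the Arabidopsis gene AT2G01300, was outside at −1.61, with 0.69, 0.79 and 0.66 in WT and −1.18, −0.66 and −0.86 in the mutant. The members just inside and the probe sets just outside thus had arrays in the same range.

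The rule barred members from being 3-fold lower at 0 dpa, and within that limit most were still below WT at this stage. The median difference was −0.50, beside 0.09 over all probe sets. It was negative in 22 members (78.6%, beside 37.1% of all probe sets) and positive in 6, and 10 were past 2-fold lower. These 10 were Ghi.1471.1.S1_s_at (−1.50), GraAffx.2384.1.S1_x_at (−1.48), Ghi.9405.1.A1_at (−1.37), Ghi.8858.2.A1_s_at (−1.28), GraAffx.7979.1.S1_s_at (−1.25), Ghi.6875.1.S1_at (−1.24), Ghi.3763.1.S1_s_at (−1.14), Ghi.10414.1.S1_s_at (−1.14), Ghi.45.1.S1_at (−1.13) and GhiAffx.39948.1.S1_at (−1.07). The 6 positive members were GhiAffx.4130.1.S1_at (1.12), Gra.1273.1.A1_at (0.75), GhiAffx.49735.1.S1_s_at (0.63), GhiAffx.15626.1.S1_at (0.53), Ghi.8943.2.A1_s_at (0.40) and Ghi.4567.1.A1_s_at (0.16). The genotypes did not overlap at 0 dpa for 24 of the 28, or 85.7%, beside 56.9% of all probe sets. As 0 dpa took part in the choice, these values too are a description.

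The 5 and 20 dpa arrays took no part in the choice of members and were tested with limma over all 24029 probe sets. A call needed 3-fold or more together with an adjusted p of at most 0.01, and tested differences are given ± SE with n = 3 arrays per genotype. At 5 dpa 0 of the 28 members were called in either direction, against 1.84% of all probe sets called higher and 0.179% called lower. The methods' t-test with the same thresholds also called 0, and 18 members had an unadjusted p under 0.05 in limma, as did 44.8% of all probe sets. The median difference at 5 dpa was −0.13, beside −0.07 over all probe sets, with a range from −1.13 to 0.86. Within 2-fold lay 27 of the 28, and 22945 of all 24029 probe sets. Differences of 3-fold and more were thus absent from the members at 5 dpa, as from most probe sets. The 0 calls lie near the share over all probe sets and are no trait of the members.

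Small differences at 5 dpa were nevertheless frequent. With no fold threshold, 14 members were past an adjusted p of 0.01 in limma (21.3% of all probe sets were), 10 of them lower and 4 higher by the labels. The genotypes did not overlap for 22 members, that is 78.6%, beside 49.2% of all probe sets. Levels are not held in the table, so the members could not be set beside probe sets of like level. The largest differences at 5 dpa were Gra.1273.1.A1_at at −1.13 ± 0.0587 (adjusted p = 7.57e-06), Ghi.9662.1.S1_s_at at −1.00 ± 0.0683 (adjusted p = 3.03e-05) and GhiAffx.4130.1.S1_at at −0.99 ± 0.140 (adjusted p = 0.00136). The last of these had WT arrays at 0.29, 0.73 and 0.38 and mutant arrays at −0.29, −0.65 and −0.63. On the other side stood Ghi.9405.1.A1_at, the largest positive difference, with WT arrays at −0.28, −0.70 and −0.52 and mutant arrays at 0.38, 0.43 and 0.28, that is 0.86 ± 0.108 (adjusted p = 7.53e-04).

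The other 7 members that were lower in this sense at 5 dpa, all by less than 2-fold, were Ghi.4436.1.A1_at (−0.74), GhiAffx.15626.1.S1_at (−0.68), Ghi.3125.1.S1_x_at (−0.62), GraAffx.9209.1.A1_s_at (−0.57), GhiAffx.49735.1.S1_s_at (−0.52), GhiAffx.25235.1.A1_at (−0.47) and Ghi.1471.1.S1_s_at (−0.44). The other 3 that were higher were GraAffx.2384.1.S1_x_at (0.62), Ghi.8943.2.A1_s_at (0.40) and Ghi.8858.2.A1_s_at (0.34). Both signs at 5 dpa occurred among members with large and with small differences at 10 dpa.

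At 20 dpa the members went apart. Of the 28, 2 were called higher and 3 lower in the mutant, against 2.47% and 1.95% of all probe sets, and 23 were not called. The median difference was −0.65, beside 0.01 over all probe sets, with a range from −5.48 to 1.75. With no fold threshold, 20 members were past an adjusted p of 0.01, 17 of them lower and 3 higher, where 38.6% of all probe sets were. The genotypes did not overlap for 26 members, or 92.9%, beside 58.3% of all probe sets. In 23 members (82.1%, beside 49.4% of all probe sets) the sign at 20 dpa was negative, the opposite of the sign by which they were chosen at 15 dpa. With the labels exchanged the median was 0.65, 3 members were called higher and 2 lower, and the 23 had the sign of 15 dpa.

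Ghi.10414.1.S1_s_at differed most. At 20 dpa its WT arrays gave 2.36, 2.38 and 2.45 and its mutant arrays −3.35, −3.54 and −2.36, so the mutant as labelled stood 44.7-fold below WT after being 13.4-fold above it at 15 dpa. The difference was −5.48 ± 0.266 (adjusted p = 8.94e-07). Its mutant replicate 3 lay above the other mutant arrays, and without that array the difference was −5.84. At 10 dpa this member had read 0.96, 1.14 and 1.03 in WT and −0.96, −1.18 and −1.05 in the mutant, and at 5 dpa the genotypes lay next to each other, at −0.04, −0.01 and −0.08 in WT and 0.14, 0.01 and 0.04 in the mutant. At 0 dpa its arrays read 0.54, 0.61 and 0.53 in WT and −0.54, −0.67 and −0.53 in the mutant.

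Ghi.6732.1.A1_at was also lower in the mutant as labelled at 20 dpa, with WT arrays at 0.83, 1.23 and 0.74 and mutant arrays at −0.74, −0.94 and −0.97, a difference of −1.82 ± 0.131 (adjusted p = 9.02e-06). GhiAffx.25235.1.A1_at had WT arrays at 0.80, 0.85 and 0.78 and mutant arrays at −0.78, −0.84 and −0.97, a difference of −1.68 ± 0.0747 (adjusted p = 5.57e-07). Both were clear of WT on all 3 mutant arrays. For GhiAffx.25235.1.A1_at the arrays of the stages before were 0.84, 0.88 and 0.89 in WT and −0.84, −1.16 and −1.03 in the mutant at 10 dpa, and −1.24, −1.00 and −1.52 in WT and 1.00, 1.01 and 1.01 in the mutant at 15 dpa. At 5 dpa they were 0.11, 0.22 and 0.28 in WT and −0.11, −0.27 and −0.42 in the mutant, and at 0 dpa 0.26, 0.06 and 0.04 in WT and −0.04, −0.12 and −0.26 in the mutant. It was thus lower in the mutant at 0, 5, 10 and 20 dpa and higher at 15 dpa by the labels, with no overlap at any stage, but with the labels exchanged, when its differences were 0.47 at 5 dpa and 1.68 at 20 dpa, it was higher at 5, 15 and 20 dpa.

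The 2 members called higher at 20 dpa had by the labels the sign of 15 dpa. With the labels exchanged they were lower (−1.75 and −1.74), and the 3 called lower were those with the sign of 15 dpa. Ghi.4436.1.A1_at had WT arrays at −0.78, −0.87 and −0.81 and mutant arrays at 0.78, 0.88 and 1.11, a difference of 1.75 ± 0.0925 (adjusted p = 1.46e-06), after −0.89, −0.74 and −0.79 in WT and 0.81, 0.85 and 0.74 in the mutant at 15 dpa. Its arrays at 10 dpa were 1.70, 1.61 and 0.94 in WT and −1.08, −0.94 and −1.05 in the mutant, and at 5 dpa 0.30, 0.52 and 0.32 in WT and −0.35, −0.44 and −0.30 in the mutant. GhiAffx.18050.1.S1_s_at had WT arrays at −0.85, −0.81 and −0.85 and mutant arrays at 0.81, 0.90 and 1.00, a difference of 1.74 ± 0.0726 (adjusted p = 3.92e-07). It had stood at −1.11, −1.00 and −0.82 in WT and 0.92, 0.82 and 0.99 in the mutant at 15 dpa, and at 1.07, 0.97 and 1.05 in WT and −0.98, −1.09 and −0.97 in the mutant at 10 dpa. At 0 dpa both members had small differences, of −0.28 for Ghi.4436.1.A1_at (0.02, 0.23 and 0.22 in WT, −0.30, −0.02 and −0.06 in the mutant) and −0.07 for GhiAffx.18050.1.S1_s_at (0.09, 0.09 and −0.12 in WT and −0.15, −0.03 and 0.03 in the mutant), and the latter was also close to 0 at 5 dpa (0.05, 0.03 and 0.14 in WT and −0.03, −0.09 and −0.07 in the mutant).

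Short of 3-fold, GhiAffx.41420.1.S1_at at −1.55 ± 0.242 (adjusted p = 8.37e-04) and Ghi.45.1.S1_at at −1.52 ± 0.113 (adjusted p = 1.04e-05) were nearest to a call on the lower side. On the higher side it was GhiAffx.4130.1.S1_at, with WT arrays at −0.71, −0.64 and −0.52 and mutant arrays at 0.52, 0.52 and 0.56, that is 1.15 ± 0.0737 (adjusted p = 4.33e-06). The smallest differences at 20 dpa were those of GhiAffx.39948.1.S1_at (−0.07), GhiAffx.49735.1.S1_s_at (0.13) and Gra.1273.1.A1_at (−0.16), none of which was past an adjusted p of 0.01. For Ghi.6875.1.S1_at the arrays were 0.02, 0.35 and 0.30 in WT and −0.52, −0.61 and −0.02 in the mutant, and for GhiAffx.6049.1.A1_at 0.74, 0.52 and 0.26 in WT and −0.33, −0.35 and −0.26 in the mutant.

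**Figure D3:**
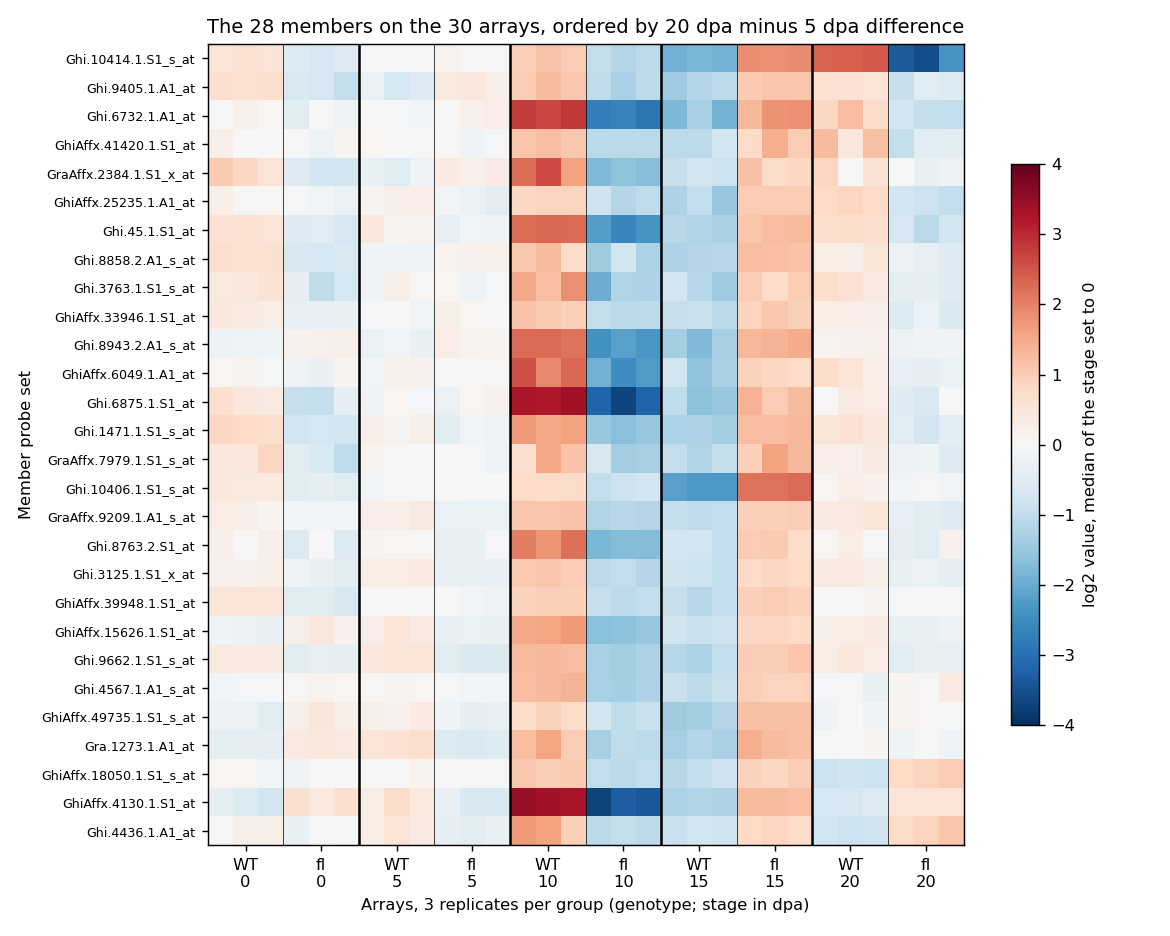
The 28 members (rows) on the 30 arrays (columns, 3 replicates per genotype and stage), with colour for the log2 value relative to the median of its stage. Rows are ordered by the 20 dpa difference minus the 5 dpa difference. WT is red and the mutant blue at 10 dpa and the colours are exchanged at 15 dpa, as chosen, while at 20 dpa the top row (Ghi.10414.1.S1_s_at, −5.48) and the bottom rows (Ghi.4436.1.A1_at, 1.75) stand apart from pale rows between them.

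Whether the genotype difference changed between the 2 stages outside the rule was tested directly, as the 20 dpa difference minus the 5 dpa difference. Of the 28 members, 3 were called with a higher and 3 with a lower difference at 20 dpa, beside 3.14% and 4.22% of all probe sets. With no fold threshold 20 members were past an adjusted p of 0.01, beside 42.0% of all probe sets. The difference was higher at 20 dpa for Ghi.4436.1.A1_at by 2.49 ± 0.181 (adjusted p = 9.42e-12), for GhiAffx.4130.1.S1_at by 2.14 ± 0.159 (adjusted p = 1.34e-11) and for GhiAffx.18050.1.S1_s_at by 1.88 ± 0.103 (adjusted p = 3.47e-14). It was lower for Ghi.10414.1.S1_s_at, at −5.59 ± 0.226 (adjusted p = 7.21e-17), for Ghi.9405.1.A1_at, at −2.08 ± 0.158 (adjusted p = 2.35e-11), and for Ghi.6732.1.A1_at, at −2.05 ± 0.21 (adjusted p = 6.36e-09).

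Ghi.9405.1.A1_at is called here although it was not called at either stage, since its small differences were of opposite sign. After −0.28, −0.70 and −0.52 in WT and 0.38, 0.43 and 0.28 in the mutant at 5 dpa, it read 0.62, 0.57 and 0.50 in WT and −0.91, −0.50 and −0.56 in the mutant at 20 dpa. Its arrays at the stages of the rule were 0.64, 0.61 and 0.63 and −0.61, −0.67 and −0.94 at 0 dpa, 1.03, 1.28 and 1.09 and −1.03, −1.29 and −1.04 at 10 dpa, and −1.41, −1.18 and −1.05 in WT and 1.05, 1.10 and 1.10 in the mutant at 15 dpa, in the order WT and mutant. Its mutant arrays as labelled were therefore above WT at 5 and 15 dpa and below it at 0, 10 and 20 dpa, with no overlap at any stage. With the labels exchanged they were above WT at 15 and 20 dpa. Over the 28 members, 14 were negative at both 5 and 20 dpa, 9 were positive and then negative, 5 were negative and then positive, and 0 were positive at both. With the labels exchanged 14 were positive at both stages, 9 negative and then positive, 5 positive and then negative, and 0 negative at both. By the labels 67.9% of the members were negative at 5 dpa, near the 62.7% of all probe sets. At 20 dpa it was 82.1% beside 49.4%. No share over all probe sets is given for the joint signs.

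**Figure D4:**
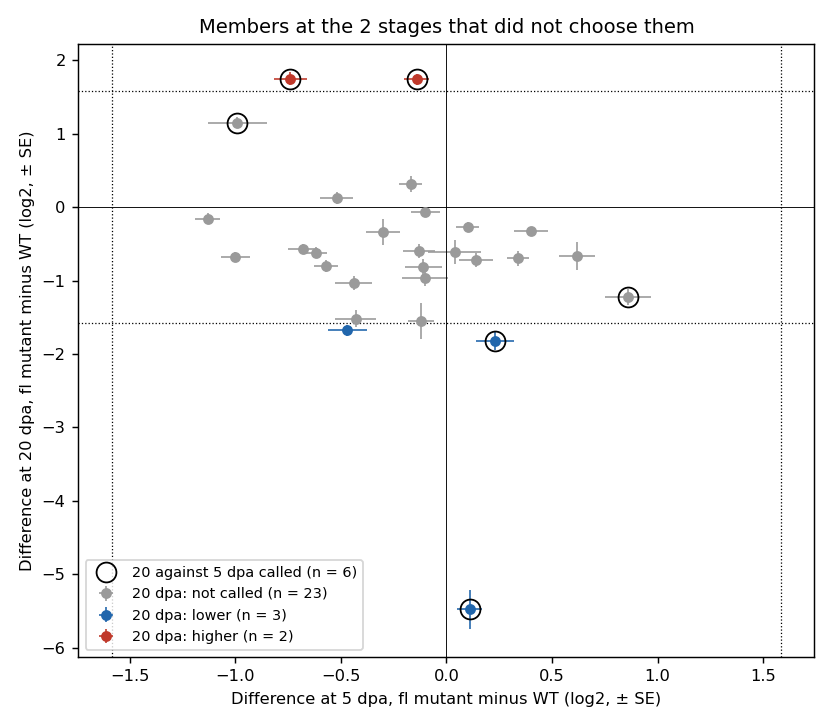
Mutant minus WT difference of each member at 5 dpa (x axis, log2) and at 20 dpa (y axis, log2), the stages that took no part in the choice, with bars for the SE of limma and dotted lines at 3-fold. Colours give the call at 20 dpa and rings the 6 members called for 20 against 5 dpa. By the labels the upper right field holds 0 members, for which no share over all probe sets is given. With the labels exchanged every point moves to the opposite side of both zero lines. By the labels Ghi.10414.1.S1_s_at lies far below the others at −5.48.

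What the members share beyond the rule was read from their probe set names. The prefix gives the species of the design sequence, and 24 members were of G. hirsutum (Ghi) and 4 of G. raimondii (Gra), where 69.9% and 29.4% of all probe sets were. The ending _s_at marks probes that match several transcripts and _x_at probes that may cross-hybridise. Of all probe sets 38.5% had the first ending and 6.45% the second. Of the members 12 had the first and 2 the second, so that 14 (50.0%) could collect signal from related transcripts. Those 14 include Ghi.10414.1.S1_s_at, Ghi.10406.1.S1_s_at and Ghi.8943.2.A1_s_at, and their values are less certain as the measure of a single gene. The 6 members with the largest move held 5 with neither ending. The 28 members came from 28 different sequence clusters, so none of them is a repeat of another by name.

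The number after the prefix names the sequence cluster from which a probe set was designed, and 11 members had 14 other probe sets of their cluster on the array. An Arabidopsis match was held for 5 of these 14, and the match belongs to the other probe set and not to the member. Ghi.3763.1.S1_s_at shared its cluster with Ghi.3763.1.A1_s_at, matched to AT3G63380, an ion-pumping ATPase that in Arabidopsis moves calcium out of the cytosol. The member read −2.99 at 10 dpa and 2.02 at 15 dpa, and the matched probe set −4.04 and 4.83. At 0 dpa they differed, with −1.14 for the member and −5.73 for the other, so that only the member met the rule. Ghi.6875.1.S1_at shared its cluster with Ghi.6875.2.A1_at, matched to AT3G02840, an ARM repeat protein (a fold that binds other proteins). Here the member and the other probe set were close, at −6.63 and −6.38 at 10 dpa and at 2.62 and 2.49 at 15 dpa, and again the other probe set was lower at 0 dpa, at −2.22 beside −1.24.

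Ghi.8763.2.S1_at was beside Ghi.8763.1.A1_x_at, matched to AT1G23710, which encodes a protein of unknown function. That probe set moved further than the member, at −5.11 beside −3.77 at 10 dpa and at 3.41 beside 1.78 at 15 dpa. At 0 dpa it was also past 3-fold lower, at −2.70 beside −0.53, so that only the member met the rule. Ghi.8858.2.A1_s_at was beside Ghi.8858.1.A1_at, matched to AT2G40180, the protein phosphatase 2C5, which in Arabidopsis acts on MAP kinases. Its values were −2.00 at 10 dpa and 1.32 at 15 dpa, against −2.17 and 2.38 for the member. Gra.1273.1.A1_at was beside Gra.1273.2.S1_at, matched to AT4G12020, a protein kinase that also carries a WRKY domain. The 2 probe sets went together at 10 dpa (−2.40 for the member and −2.83 for the other), at 0 dpa (0.75 and 0.72) and at 5 dpa (−1.13 and −0.83), while at 15 dpa the other probe set reached 1.49 and the member 2.56.

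All 5 matched probe sets were past 3-fold lower at 10 dpa, and 3 of them past 3-fold higher at 15 dpa. Those 3 were also past 3-fold lower at 0 dpa, which the rule of the members barred. The 9 without a match were weaker, with 4 past 3-fold lower at 10 dpa and 0 past 3-fold higher at 15 dpa, where they lay between −0.12 and 0.76. Matches are held for differentially expressed transcripts (DETs) of the study, so a larger difference among the matched ones is part of how they came to be matched. Several pairs without a match had the same name apart from the letter A or S. Ghi.45.1.S1_at read −4.67 at 10 dpa and 2.40 at 15 dpa, and its counterpart Ghi.45.1.A1_at read −1.44 and 0.45. Ghi.6732.1.A1_at read −5.55 and 3.33, and Ghi.6732.1.S1_at −2.99 and 0.49. GhiAffx.49735.1.S1_s_at read −1.68 and 2.48, and GhiAffx.49735.1.A1_s_at 0.04 and 0.19. Over all 14, the sign was that of the member in 13 at 10 dpa and in 13 at 15 dpa, and the size was below that of the member in 11 and in 12. The members were picked for large differences at these stages and the other probe sets were not, so smaller sizes follow in part from the choice.

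**Figure D5:**
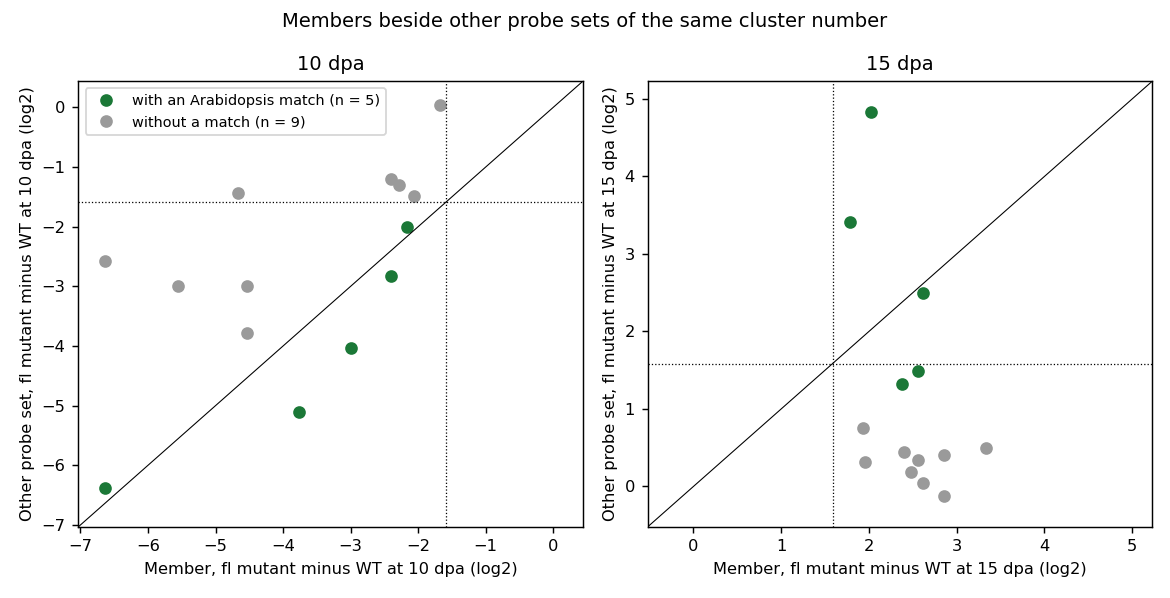
Mutant minus WT difference of the 14 other probe sets of the members' clusters (y axis, log2) against that of the member (x axis, log2) at 10 dpa (left) and 15 dpa (right). The diagonal is equality and dotted lines mark 3-fold. At 15 dpa the 9 probe sets without a match lie between −0.12 and 0.76, below their members, while 5 with a match lie between 1.32 and 4.83.

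A further 25 probe sets had the same differences at 0, 10 and 15 dpa and are named, since the study listed them. They include AOS, LOX3 and LOX4, enzymes that make jasmonate precursors, and RAP2.3, RAP2.4 and RRTF1 of the AP2/ERF transcription factor family. Others are the transcription factors WRKY46, STZ, GATA5, SCL8 and GRF5, the galactinol synthase GolS2, the small heat shock protein HSP21, the dehydration-responsive RD22 and the wall-associated kinase WAK1. Their median differences were −2.72 at 10 dpa and 2.11 at 15 dpa, next to −2.42 and 2.21 for the members, all set by the rule. Outside the rule, 0 of the 25 were called at 5 dpa, where 1.84% of all probe sets were called higher and 0.179% lower. The 0 calls are near that share. Their median there was −0.21, beside −0.07 over all probe sets. At 20 dpa 4 (16%) were called higher and 7 (28%) lower by the labels, beside 2.47% and 1.95% of all probe sets. The median was −1.00, with a range from −3.10 to 3.13. With the labels exchanged 7 were called higher and 4 lower. Whether they differ from the members at 20 dpa was not tested.

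The 20 dpa differences of these named transcripts went both ways, as those of the members did. RRTF1 (GhiAffx.15854.1.S1_at) was at −2.22 ± 0.135 (adjusted p = 3.20e-06), LOX4 at −2.02 ± 0.0859 (adjusted p = 4.39e-07) and RD22 (Ghi.4648.2.A1_s_at) at −3.10 ± 0.110 (adjusted p = 1.68e-07). HSP21 was at 3.13 ± 0.0619 (adjusted p = 9.41e-09), RAP2.3 at 2.25 ± 0.0648 (adjusted p = 5.88e-08) and GRF5 at 1.76 ± 0.116 (adjusted p = 5.14e-06). These signs are by the labels, and with the labels exchanged each of them is reversed. The paper describes heat shock protein transcripts as lower in the mutant at 20 dpa. The 88 probe sets that were also lower at 0 dpa had a median of 0.25 at 5 dpa, with 6 called higher and 0 lower, and of −1.07 at 20 dpa, with 0 called higher and 17 lower. The medians of the 3 groups at 20 dpa were −0.65, −1.00 and −1.07 by the labels, beside 0.01 for all probe sets, and 0.65, 1.00 and 1.07 beside −0.01 with the labels exchanged.

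Lists of fibre, seed storage and touch or wound response genes were counted beside the members, with names from the tables of the study. Of 57 probe sets of touch and wound genes, such as the xyloglucan enzyme TCH4 and the calcium sensor TCH2, 17 were past 3-fold lower at 10 dpa and past 3-fold higher at 15 dpa, beside 0.587% of all probe sets. Most of these 17 were also past 3-fold lower at 0 dpa, which the rule of the members barred. Only STZ (Ghi.6704.1.S1_at, −1.51) and RRTF1 (GhiAffx.15854.1.S1_at, −1.22) met its condition at 0 dpa, and both are among the 25 above. Over the 57, the median was −2.80 at 0 dpa, 0.18 at 5 dpa, −1.94 at 10 dpa, 2.82 at 15 dpa and −1.12 at 20 dpa. With the labels exchanged the values at 5 and 20 dpa were −0.18 and 1.12. Of 27 probe sets of fibre genes (MYB16, MYB106, EXPA1, FLA11, FLA7, RD22 and a germin-like protein), 2 had this pattern, both of RD22, and the medians were −0.20 at 0 dpa, −0.12 at 5 dpa, −1.94 at 10 dpa, −1.58 at 15 dpa and 0.65 at 20 dpa. At 10 dpa 15 of them were called lower and 4 higher, beside 6.55% and 4.91% of all probe sets, and at 15 dpa 13 lower and 4 higher, beside 1.91% and 1.52%. The list thus held calls in both directions at each of these stages, among those higher EXPA1 (GhiAffx.53638.1.A1_s_at) at 4.17 at 10 dpa and MYB106 (Ghi.2459.1.S1_at) at 1.84 at 15 dpa. At 20 dpa 8 were called higher and 3 lower in the arrays labelled mutant, beside 2.47% and 1.95%, with FLA11 (Ghi.4418.2.S1_s_at) at 4.67, FLA7 (Ghi.5860.1.S1_s_at) at 5.48 and EXPA1 (Ghi.2039.1.S1_x_at) at 3.65. These probe sets had been at −7.04, −6.92 and −5.55 at 15 dpa. With the labels exchanged 3 of the list were called higher and 8 lower at 20 dpa, with a median of −0.65. Of 2 storage probe sets, 0 had the pattern. Their part in the members' differences was not tested, and the tables that name these genes hold DETs only.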

How the data were processed

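Total RNA of WT and fl mutant ovules at 5 stages was measured on 30 Affymetrix cotton arrays, 3 biological replicates per group. The authors summarised the scans by RMA in GeneSpring. The deposited values are log2, and for every probe set the 6 values of a stage have 0 as their median (largest departure 5.0e-07), so differences within a stage are held and levels are not. Array medians lay between −0.0374 and 0.0433, arrays of a group correlated at 0.762 to 0.936 over probe sets, and 0 pairs of arrays were identical. No counts or depth exist for arrays, and 3 arrays per genotype limit the precision.

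Samples were grouped by their labels. The table holds 24132 probe sets, of which 103 are controls of the array maker and were not used, and the 24029 others, 52 of them for reporter genes, were tested. limma 3.58.1 in R 4.3.3 (lmFit, eBayes, checked on data with known differences) compared the genotypes at each stage, and in 1 fit of all 30 arrays the 20 dpa with the 5 dpa difference. Calls needed at least 3-fold and p of at most 0.01 after Benjamini-Hochberg adjustment. SE are limma's. Counts used Python 3.11.15 with pandas 2.3.3. The members and gene lists were chosen with earlier results of these data known. Every member is accounted for, and array values are given for the 6 with the largest move, for those called and for the neighbours of each threshold. Members called only for 20 against 5 dpa were given array values after their results were seen. Arabidopsis matches come from the tables of the study, whose annotation table is held here in part. Alternatives were other scalings, quantile normalization, thresholds, sets of arrays, member rules, the methods' t-test, exchanged labels and a replicate block.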

Additional observations from a re-analysis of the deposited data

Results flagged for a closer look

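For 6 of the 28 members the genotype difference at 20 dpa was itself different from that at 5 dpa in the limma fit of all 30 arrays, past an adjusted p of 0.01 and 3-fold. The 20 dpa difference minus the 5 dpa difference was 2.49 for Ghi.4436.1.A1_at, 2.14 for GhiAffx.4130.1.S1_at and 1.88 for GhiAffx.18050.1.S1_s_at. It was −5.59 for Ghi.10414.1.S1_s_at, −2.08 for Ghi.9405.1.A1_at and −2.05 for Ghi.6732.1.A1_at. The first 3 were negative at 5 dpa and positive at 20 dpa, and the other 3 were positive at 5 dpa and negative at 20 dpa, by the labels of these stages. With 3 arrays per group no single array could be tested as standing apart from its group.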

How the results depend on the processing

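Exchanging the WT and fl mutant labels at 5 and 20 dpa, where the labelled direction opposes the fold tables of the study, turned the sign of every difference called at these stages. The 20 dpa difference was then 1.82 for Ghi.6732.1.A1_at, 5.48 for Ghi.10414.1.S1_s_at, 1.68 for GhiAffx.25235.1.A1_at, −1.75 for Ghi.4436.1.A1_at and −1.74 for GhiAffx.18050.1.S1_s_at. The 20 against 5 dpa difference was then −2.14 for GhiAffx.4130.1.S1_at, 2.05 for Ghi.6732.1.A1_at, 5.59 for Ghi.10414.1.S1_s_at, 2.08 for Ghi.9405.1.A1_at, −2.49 for Ghi.4436.1.A1_at and −1.88 for GhiAffx.18050.1.S1_s_at. In the other alternatives tried for called members, 184 results kept their direction and their side of the thresholds.

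The member list depended on its rule. It held 151 probe sets at 2-fold, 15 at 4-fold, 72 with no condition at 0 dpa, 53 with the listed probe sets kept and 47 after quantile normalization within each stage (26 of the 28 among them), and 27 to 31 with an array left out. Members called at 5 dpa were 0 in each direction with any array left out, but 1 lower at 2-fold, 1 lower after quantile normalization and 1 higher among the 151. At 20 dpa they were 2 higher and 3 to 4 lower with an array left out, 5 lower after quantile normalization, 7 lower at 2-fold, 4 higher and 13 lower among the 151, 0 higher among the 15 and 1 higher among the 14 members with neither a shared nor a cross-hybridising ending. For 20 against 5 dpa they were 3 higher and 3 to 4 lower with an array left out, 8 lower at 2-fold, 8 higher and 13 lower among the 151, and 1 higher among the 15. The cause of these moves was not tested, beyond the larger or smaller lists that the rules give. Over all probe sets, 441 higher and 43 lower calls at 5 dpa became 264 and 167 after quantile normalization and 880 and 200 at 2-fold. At 2-fold, 594 and 468 at 20 dpa became 1350 and 1257, and 754 and 1015 for 20 against 5 dpa became 1646 and 2051.

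Replicate numbers did not pair the arrays, since same-numbered WT and mutant arrays deviated together with correlations from −0.158 to 0.156. With the replicate block the calls were as without it, namely 0 members at 5 dpa, for 20 dpa 2 higher with 3 lower, and for 20 against 5 dpa 3 higher with 3 lower. A filter on low values was not run, since no levels are held.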
